A study of Mus musculus with 8 samples.

Results

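Interferon-stimulated genes are the genes that cells switch on after sensing interferon, and most of their proteins act against viruses. The genes described here were taken from a list of 47 gene symbols, matched to the count table by Ensembl identifier through the GENCODE M21 annotation of the mouse genome (GRCm38). All 47 matched 1 identifier among the 51826 genes in the table, and all 47 were among the 16484 genes with enough counts to be tested.

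Total splenocytes, the mixed cells of a whole spleen, were sequenced from 8 female Balb/c mice without pristane, the hydrocarbon oil that starts lupus-like disease in this strain. In the tRA group, 4 mice received all-trans-retinoic acid, the active form of vitamin A, by mouth in canola oil at 1 mg/kg body weight each day from weaning. In the control group, 4 mice received the oil alone, and all 8 spleens were taken at 3 months of age. The comparison asks which splenic transcripts differ after tRA and before any lupus-like disease is started. The protocol label names tRA for every library, so the groups follow the sample titles. Counts on genes came to 37539631, 31833853, 35924683 and 30919272 in control mice 1 to 4, and to 33755595, 31810417, 35165876 and 32042754 in tRA mice 1 to 4. Markers of B and T cells were present in every library. The 7 B cell markers summed to 6861, 6330, 6147 and 5703 CPM in the control mice and 6289, 6411, 6253 and 6289 CPM in the tRA mice, and the 7 T cell markers to 1445, 1462, 1754 and 1738 CPM in the control mice and 1740, 1621, 1674 and 1654 CPM in the tRA mice. CPM are counts put on a common library size after TMM scaling, a correction for differences in library composition.

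As background, type I interferons bind a receptor made of Ifnar1 and Ifnar2, whose kinases Jak1 and Tyk2 phosphorylate factors such as Stat2. With Irf9, Stat2 is part of a complex that binds the interferon-stimulated response element (ISRE) in the promoters of responsive genes. Interferon gamma uses Ifngr1 and Ifngr2 and acts through the gamma-activated sequence (GAS). Low tonic signalling keeps many of these genes measurable in a resting spleen, and raised levels of them in blood cells are a known mark of human lupus.

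Between the tRA and control mice, 0 of the 47 genes passed a false discovery rate (FDR) of 0.1 by edgeR (quasi-likelihood F test, p adjusted by Benjamini-Hochberg), beside 0 of 16484 genes (0%). The lowest adjusted p among them was 0.757. At an unadjusted p under 0.05, 0 of the 47 were higher with tRA (2.94% of all genes tested) and 1, Bst2, was lower (3.55%). No gene of the list had its 4 tRA mice apart from its 4 control mice, in 0 cases above (1.91% of all genes) and in 0 below (1.63%). DESeq2 called 44 genes in all (0.339% of the 12964 with an adjusted p) and limma-voom called 1 (0.00607%), and 0 of them were in the list. At an unadjusted p under 0.05, DESeq2 had Bst2 and Ly6e lower among 623 genes of all tested, and limma-voom had Bst2 lower among 642. Fold changes are tRA over control on the log2 scale. They were positive for 21 of the 47 and negative for 26, with a median of -0.012, beside 0.0014 over all genes tested. They ran from -0.32 for Bst2 to 0.40 for Oasl2.

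The genes of the list differed among mice of the same group. The mouse tRA 2 had the lowest level of all 8 mice for 35 of the 47 genes, 74.5%, whereas it was the lowest mouse for 7.02% of all genes tested. The mouse tRA 1 had the highest level for 23 of the 47, 48.9%, against 12.0% of all genes. Each control mouse was lowest for 1 to 4 of the 47 and highest for 0 to 8. Averaged over the list, the log2 deviation from the mean of the 8 mice was -0.10, -0.018, 0.10 and 0.085 in the control mice and 0.24, -0.42, 0.054 and 0.070 in the tRA mice. The controls thus lay between the highest and the lowest tRA mouse. For 38 of the 47 genes, 80.9%, the SD of log2 CPM was larger among tRA mice than among controls, as for 46.8% of all genes. The median SD over the list was 0.27 among tRA mice and 0.14 among controls, and over all genes 0.18 in each group. These SDs include tRA 2, and SDs without this mouse were not calculated. The list averages of the other tRA mice ran from 0.054 to 0.24, and those of the controls from -0.10 to 0.10. For the list average, the wider spread of the tRA group thus rested on tRA 2. The library of tRA 2 held 31810417 counts, a total within the range of the controls, and its TMM factor was 0.999. These patterns were chosen for description after the values were seen.

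Leaving out either of these mice moved the counts. They were picked because the list was lowest or highest in them, so the direction of each move follows from that choice. Without tRA 1, the median fold change of the list was -0.058, and 7 genes were lower at an unadjusted p under 0.05: Bst2, Mx2, Oasl1, Isg15, Ly6e, Usp18 and Ifit3. In that fit Dtx3l was higher, and of all 16683 genes tested 824 were higher and 1281 lower at that level. Without tRA 2, the median was 0.089, and Cmpk2, Oasl2, Oas3 and Xaf1 were higher while Bst2 was lower. In that fit 295 of all 16760 genes tested were higher and 467 lower. No gene of the list reached an FDR of 0.1 in either fit by edgeR, with lowest adjusted p-values of 0.205 and 0.922. Over all reported alternative fits the lowest adjusted p of the list ran from 0.188 with DESeq2 to 1.00 by edgeR without tRA 4. Without control 3, Gbp2 was higher and Bst2 lower at an unadjusted p under 0.05, beside 431 higher and 475 lower of all 16661 genes tested in that fit.

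**Figure D1:**
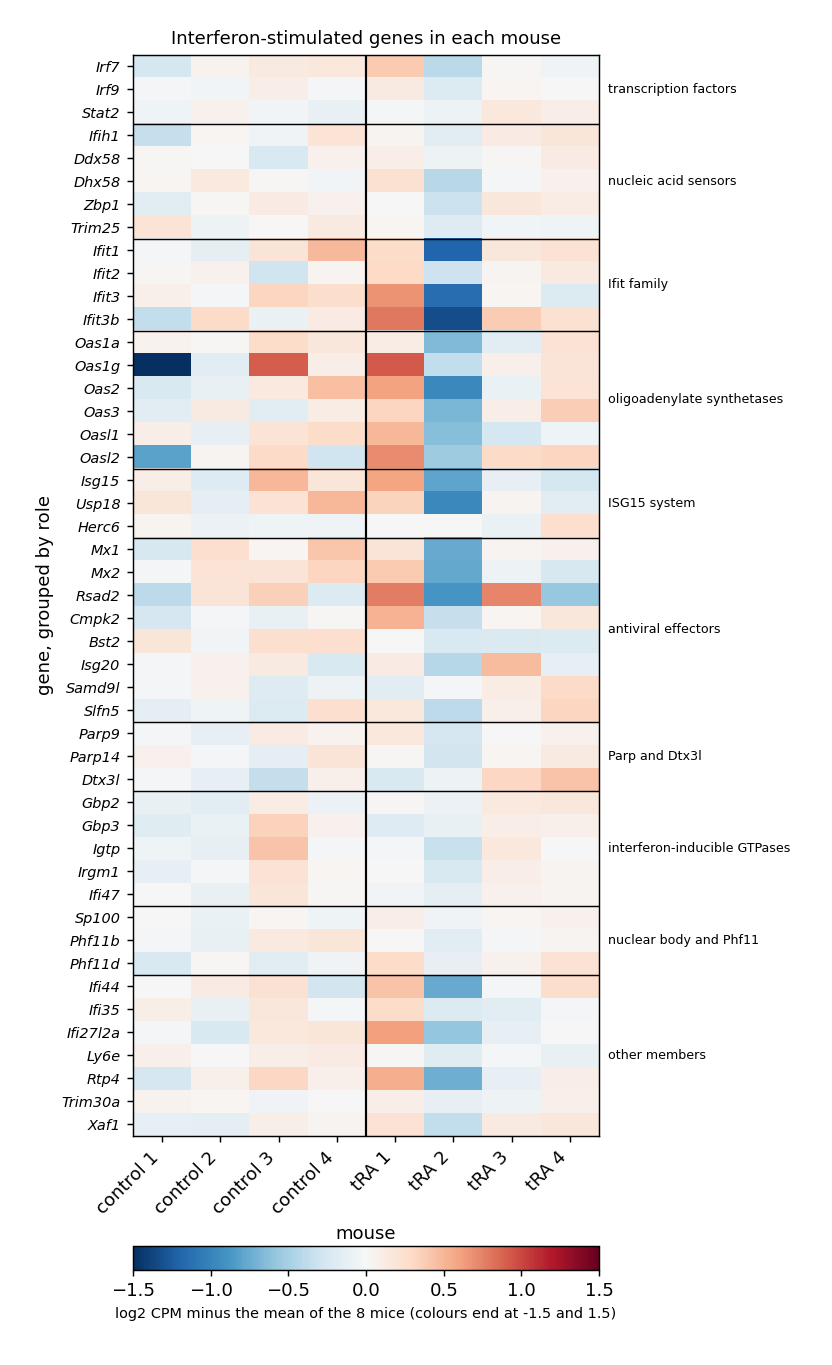
Log2 CPM of each of the 47 genes in each of the 8 mice, minus the mean of the 8 mice, as a colour from blue (lower) to red (higher), with genes ordered by role and mice side by side. The mouse tRA 2 is the lowest for 35 genes and tRA 1 the highest for 23.

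The transcription factors of the list carry the signal to the genome. Stat2, a part of the type I interferon complex, measured 151, 165, 153 and 146 CPM in control mice 1 to 4 and 155, 149, 175 and 169 CPM in tRA mice 1 to 4. The groups overlapped, with tRA 3 and tRA 4 highest and control 4 lowest. Stat2 had a log2 fold change of 0.076 ± 0.071 (SE, edgeR adjusted p = 0.853). Irf9, the DNA-binding part of that complex, ranged only from 121 CPM in tRA 2 to 153 CPM in tRA 1, the same pair of mice that marked the ends of the whole list. Irf7, which amplifies interferon alpha production and is itself induced by interferon, measured 74.6, 93.2, 98.6 and 100.01 CPM in the control mice and 118, 68.1, 91.0 and 85.7 CPM in the tRA mice. The lowest was tRA 2 and the highest tRA 1, with every control mouse between them. The log2 fold change of Irf7 was -0.015 ± 0.15 (SE, edgeR adjusted p = 0.990).

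Nucleic acid sensors detect viral RNA or DNA inside the cell. Trim25, a ubiquitin ligase that helps activate RIG-I, measured 221, 182, 190.3 and 209.5 CPM in the control mice and 196, 167, 186 and 182 CPM in the tRA mice. The highest values were those of controls 1 and 4, and tRA 1 lay above controls 2 and 3, so the groups overlapped. For Trim25 the log2 fold change was -0.13 ± 0.079 (SE, edgeR adjusted p = 0.792). The RIG-I gene Ddx58 and the MDA5 gene Ifih1 had fold changes of 0.076 and 0.082. Dhx58, which encodes their relative LGP2, had one of -0.055, and Zbp1, a sensor of Z-form nucleic acids, one of -0.012. Per kilobase of exon, Trim25 (33.3 CPM per kb), Zbp1 (21.6) and Ddx58 (20.8) stood above Dhx58 (6.95) and Ifih1 (2.35).

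The Ifit proteins bind foreign RNA and block its translation, and their genes varied most of all roles in the list. Ifit2, the most abundant of them per kilobase of exon, measured 21.3, 22.0, 17.0 and 21.7 CPM in the control mice and 25.9, 17.0, 21.7 and 23.2 CPM in the tRA mice. The values of tRA 2 and control 3 were lowest and near each other, and tRA 1 was highest. Ifit2 had a log2 fold change of 0.097 ± 0.13 (SE, edgeR adjusted p = 0.891). Ifit1 measured 4.95, 4.54, 5.75 and 7.04 CPM in the control mice and 6.08, 2.20, 5.67 and 5.84 CPM in the tRA mice. The value of tRA 2 was below all 7 others, which lay between 4.54 and 7.04 CPM. The log2 fold change of Ifit1 was -0.17 ± 0.28 (SE, edgeR adjusted p = 0.914). Ifit3, which stabilises Ifit1 on RNA, measured 7.69, 7.19, 9.10 and 8.76 CPM in the control mice and 11.6, 3.31, 7.43 and 6.29 CPM in the tRA mice. From tRA 2 to tRA 1 this was a ratio of 3.52 within a single group, and all 4 controls fell inside it. For Ifit3 the log2 fold change was -0.19 ± 0.29 (SE, edgeR adjusted p = 0.905). For Ifit3b, its near copy, the ratio from tRA 2 to tRA 1 was 4.36. Averaged over the 4 Ifit genes, the log2 deviation from the 8-mouse mean was -0.073, 0.044, 0.028 and 0.23 in the control mice and 0.50, -0.97, 0.15 and 0.090 in the tRA mice. The SD of this average was 0.64 among tRA mice and 0.12 among controls (n = 4 each). Much of the SD among tRA mice rested on tRA 2. The averages of the other tRA mice ran from 0.090 to 0.50, and those of the controls from -0.073 to 0.23.

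Oligoadenylate synthetases make the short RNA messenger that turns on RNase L when double-stranded RNA is present. Oas2 measured 24.7, 26.9, 32.0 and 39.5 CPM in the control mice and 44.0, 14.8, 26.9 and 33.3 CPM in the tRA mice. The ends of its range were again tRA 2 and tRA 1, and control 4 was closest to the upper end. Oas2 had a log2 fold change of -0.048 ± 0.27 (SE, edgeR adjusted p = 0.982). Oasl2, a synthetase-like gene, had the largest positive fold change of the list, with 3.09, 5.54, 6.59 and 4.36 CPM in the control mice and 8.80, 3.72, 6.56 and 6.72 CPM in the tRA mice. Control 1, tRA 2 and control 4 were lowest and tRA 1 highest, so the groups overlapped. The log2 fold change of Oasl2 was 0.40 ± 0.28 (SE, edgeR adjusted p = 0.798). Oas1g had the lowest level of the list, at 0.217, 0.622, 1.30 and 0.743 CPM in the control mice and 1.31, 0.535, 0.732 and 0.794 CPM in the tRA mice, from 8 to 45 counts per library. Its highest values, in control 3 and tRA 1, came from both groups, and its log2 fold change was 0.23 ± 0.46 (SE, edgeR adjusted p = 0.931). Oas1a, Oas3 and Oasl1 had fold changes of -0.21, 0.096 and -0.18, and each was lowest in tRA 2.

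Isg15 encodes a ubiquitin-like protein that interferon makes cells attach to other proteins, and it was picked with its values known. Isg15 measured 9.23, 7.53, 12.1 and 9.73 CPM in the control mice and 12.98, 4.98, 7.86 and 7.15 CPM in the tRA mice. It was highest in tRA 1 and lowest in tRA 2, and all 4 controls lay between these. For Isg15 the log2 fold change was -0.23 ± 0.26 (SE, edgeR adjusted p = 0.872). Usp18, the protease that removes Isg15 and restrains the interferon receptor, measured 12.7, 10.2, 13.1 and 15.8 CPM in the control mice and 14.1, 5.73, 11.6 and 10.02 CPM in the tRA mice. The value of tRA 2 was the lowest and that of control 4 the highest. Usp18 had a log2 fold change of -0.32 ± 0.23 (SE, edgeR adjusted p = 0.808). Herc6, the main ligase for Isg15 in mice, measured 36.4, 33.2, 33.9 and 34.2 CPM in the control mice and 35.5, 35.4, 33.2 and 42.3 CPM in the tRA mice. It was not lowest in tRA 2, which was close to the controls, and tRA 4 was highest. The log2 fold change of Herc6 was 0.087 ± 0.085 (SE, edgeR adjusted p = 0.857).

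Among the antiviral effectors, Bst2 had the lowest p-value of the list. Bst2 encodes tetherin, a membrane protein that holds budding virus particles on the cell and is also a surface marker of mouse plasmacytoid dendritic cells. It measured 34.7, 29.8, 36.1 and 36.5 CPM in control mice 1 to 4 and 30.7, 26.0, 26.4 and 26.6 CPM in tRA mice 1 to 4. The mice tRA 2, tRA 3 and tRA 4 were below every control, and tRA 1 was above control 2 and below the other controls. The means were 34.3 ± 3.09 CPM in the controls and 27.4 ± 2.18 CPM with tRA (SD, n = 4 each). For Bst2 the log2 fold change was -0.32 ± 0.089 (SE, edgeR adjusted p = 0.757), with an unadjusted p of 0.00400. The fold change ran from -0.38 to -0.29 over all reported alternative fits, and its adjusted p from 0.188 with DESeq2 to 1.00 by edgeR without tRA 4. Mx2, an interferon-induced dynamin-like GTPase, measured 14.3, 16.7, 16.6 and 18.2 CPM in the control mice and 19.0, 8.50, 13.8 and 12.3 CPM in the tRA mice. The mouse tRA 1 was above all controls, and tRA 2, tRA 4 and tRA 3 were below all controls. Mx2 had a log2 fold change of -0.29 ± 0.20 (SE, edgeR adjusted p = 0.796). The Mx genes are known to be defective in most inbred laboratory strains, and the annotation marks Mx2 as a polymorphic pseudogene, so its transcript is read without a statement on protein.

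Samd9l, the most abundant effector per kilobase of exon and a suppressor of translation and cell growth, measured 379, 400.2, 336 and 363 CPM in the control mice and 341, 379, 412 and 466 CPM in the tRA mice. The value of tRA 4 was highest, tRA 1 lay near the bottom beside control 3, and the groups overlapped. The log2 fold change of Samd9l was 0.11 ± 0.099 (SE, edgeR adjusted p = 0.840). Cmpk2, a mitochondrial nucleotide kinase encoded beside Rsad2, and Slfn5, a Schlafen family gene, had fold changes of 0.22 and 0.091. Mx1 had one of -0.20, and its value in tRA 2, 8.25 CPM, was below the other 7 mice.

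Rsad2, which encodes the antiviral enzyme viperin, followed another order of mice and was picked with its values known. It measured 11.8, 17.6, 19.8 and 13.3 CPM in the control mice and 26.1, 8.31, 25.6 and 10.4 CPM in the tRA mice. The mice tRA 1 and tRA 3 were highest, then controls 3 and 2, with tRA 2 lowest. For Rsad2 the log2 fold change was 0.18 ± 0.35 (SE, edgeR adjusted p = 0.928). Isg20, an exonuclease gene of the list, measured 19.7, 20.9, 21.9 and 17.0 CPM in the control mice and 21.7, 14.8, 27.7 and 18.4 CPM in the tRA mice, highest in tRA 3 and lowest in tRA 2. Ube2l6, the Isg15-conjugating enzyme outside the list and also picked with its values known, measured 27.3, 36.7, 46.9 and 19.1 CPM in the control mice and 46.2, 21.5, 58.4 and 22.6 CPM in the tRA mice. Erythroid genes were high in the same mice. The 7 erythroid markers, all tested, with 0 called by edgeR and 0 at an unadjusted p under 0.05, summed to 789, 1532, 2338 and 498 CPM in the control mice and 2227, 633, 3599 and 596 CPM in the tRA mice. The most abundant by CPM, the beta-globin gene Hbb-bs, measured 499, 967, 1554 and 326 CPM in the control mice and 1479, 395, 2315 and 379 CPM in the tRA mice, and no marker of this set was at 0 in any mouse. The paper's splenocyte isolation, described with its flow cytometry, includes lysis of red blood cells. The part of red cell precursors or of this step in the values of Rsad2, Isg20 and Ube2l6 was not tested. In a bulk sample, fewer cells of a type and less RNA per cell cannot be told apart.

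Parp9 and Parp14 are ADP-ribosyltransferase family members, and Dtx3l is the ubiquitin ligase that pairs with Parp9. Parp14 measured 159.7, 151, 138 and 174 CPM in the control mice and 154, 126, 156 and 167 CPM in the tRA mice. It was highest in control 4 and lowest in tRA 2, and the groups overlapped. Parp14 had a log2 fold change of -0.045 ± 0.097 (SE, edgeR adjusted p = 0.941). Dtx3l measured 66.8, 62.5, 53.1 and 71.4 CPM in the control mice and 58.1, 64.4, 84.2 and 91.8 CPM in the tRA mice. The mice tRA 3 and tRA 4 were above all controls, while tRA 1 and tRA 2 lay within the control range. The log2 fold change of Dtx3l was 0.23 ± 0.14 (SE, edgeR adjusted p = 0.793). Parp9, its neighbour and partner, had a fold change of -0.0027, with tRA 1 highest and tRA 2 lowest.

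The interferon-inducible GTPases, which attack the vacuoles of intracellular parasites and bacteria, respond strongly to interferon gamma. Irgm1, a regulator of these GTPases and of autophagy, measured 77.1, 82.1, 97.5 and 85.9 CPM in the control mice and 84.2, 71.4, 89.7 and 86.2 CPM in the tRA mice. Control 3 was highest and tRA 2 lowest, with the remaining mice close together. For Irgm1 the log2 fold change was -0.048 ± 0.092 (SE, edgeR adjusted p = 0.927). Gbp2, a guanylate-binding protein gene, measured 51.5, 49.9, 60.1 and 52.6 CPM in the control mice and 56.5, 52.5, 62.0 and 62.7 CPM in the tRA mice. The highest values were in tRA 4, tRA 3 and control 3, and the groups overlapped. Gbp2 had a log2 fold change of 0.13 ± 0.084 (SE, edgeR adjusted p = 0.794). Gbp3, Igtp and Ifi47 had fold changes of -0.075, -0.11 and -0.047, and each was highest in control 3. Averaged over these 5 GTPase genes, the log2 deviation was -0.098, -0.11, 0.26 and 0.0028 in the control mice and -0.049, -0.18, 0.11 and 0.063 in the tRA mice. Here the highest mouse was a control, and tRA 1 was not raised.

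Sp100, a component of nuclear bodies that restrict viral genomes, measured 645, 601, 655 and 614 CPM in the control mice and 685, 617, 653 and 671 CPM in the tRA mice. Its values were close together in all mice, and the groups overlapped. For Sp100 the log2 fold change was 0.062 ± 0.068 (SE, edgeR adjusted p = 0.871). Phf11d, a PHD finger gene, measured 3.98, 4.70, 4.13 and 4.49 CPM in the control mice and 5.62, 4.28, 4.88 and 5.41 CPM in the tRA mice. The highest values were in tRA 1 and tRA 4, and tRA 2 lay among the controls. For Phf11d the log2 fold change was 0.22 ± 0.14 (SE, edgeR adjusted p = 0.793). Phf11b had a fold change of -0.092.

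Of the remaining genes, Ly6e encodes a surface protein that blocks entry of coronaviruses and is abundant in lymphocytes. Ly6e measured 389.6, 368, 394 and 400.3 CPM in control mice 1 to 4 and 373, 326, 366 and 341 CPM in tRA mice 1 to 4. The mice tRA 2, tRA 4 and tRA 3 were below every control, and tRA 1 was above control 2. Ly6e had a log2 fold change of -0.14 ± 0.069 (SE, edgeR adjusted p = 0.776), with an unadjusted p of 0.0648. Ifi27l2a, a small mitochondrial and nuclear membrane protein gene picked with its values known, measured 44.2, 38.2, 49.8 and 50.7 CPM in the control mice and 68.4, 29.9, 41.1 and 44.8 CPM in the tRA mice. Here tRA 1 was above and tRA 2 below all other mice, and the log2 fold change was 0.0096 ± 0.21 (SE, edgeR adjusted p = 0.995). Ifi44, Rtp4 and Xaf1 were each lowest in tRA 2 and highest in tRA 1. Their fold changes were 0.010, -0.046 and 0.091, and those of Ifi35 and Trim30a were -0.056 and -0.012.

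Per kilobase of exon, the highest levels of the list were those of Ifi27l2a (99.1 CPM per kb), Ly6e (97.7), Sp100 (85.1) and Samd9l (70.8). A middle range from Bst2 (34.2 CPM per kb) to Isg20 (10.9) held all transcription factors of the list and the GTPase genes Gbp2, Gbp3, Igtp, Irgm1 and Ifi47. The GTPase genes Mx1 (3.79) and Mx2 (4.13) lay below it. The lowest levels were those of Ifit3b (1.28 CPM per kb), Phf11d (1.04), Oasl2 (0.890) and Oas1g (0.334). From the lowest to the highest mouse, the level varied by a ratio of 1.14 for Sp100 and 1.16 for Trim30a. For Oas1g, Ifit3b, Ifit3 and Ifit1 it varied by 6.07, 4.36, 3.52 and 3.20.

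**Figure D2:**
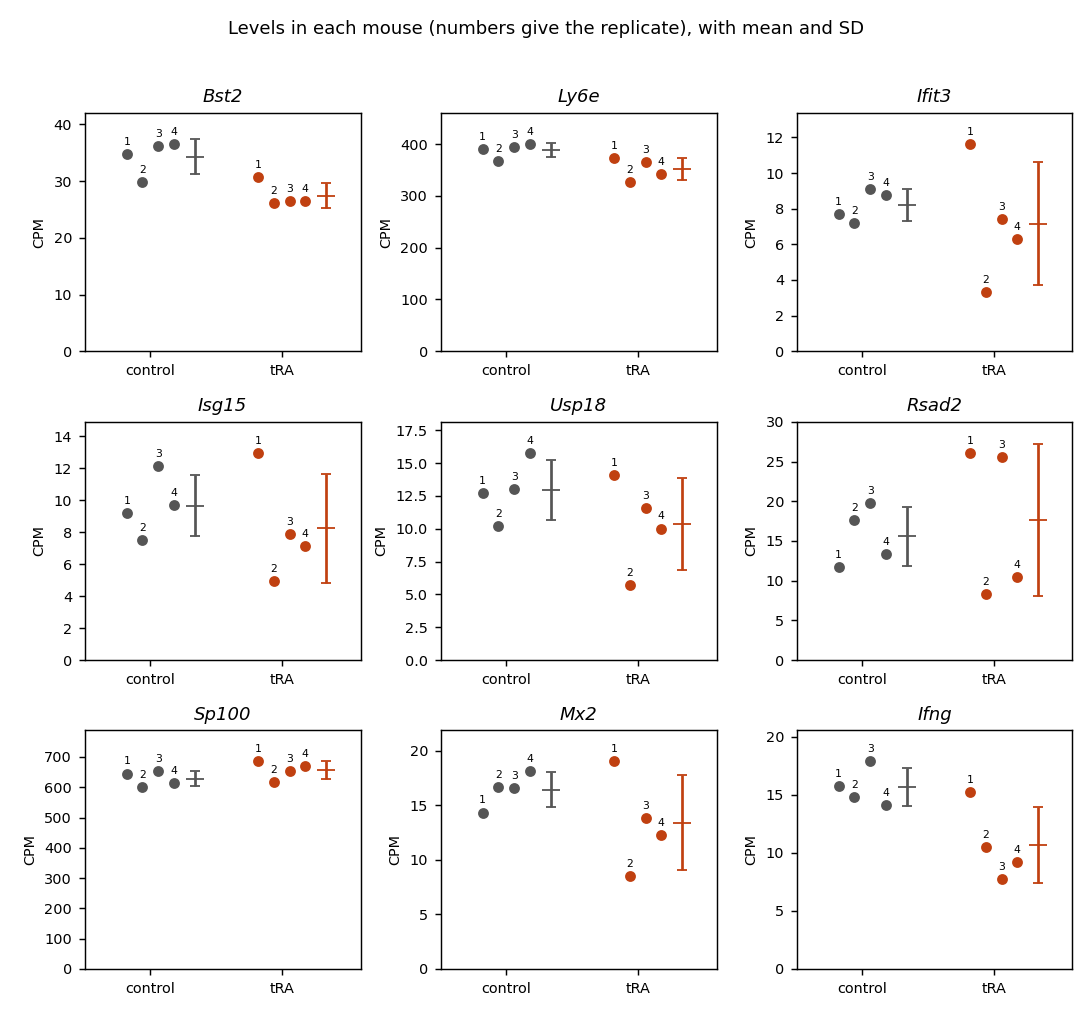
CPM of 9 genes in each mouse, with a point per mouse numbered by replicate and the group mean with its SD (n = 4) at the right of each group. For Bst2 the mice tRA 2, tRA 3 and tRA 4 lie below every control, and for Ifit3 and Isg15 the tRA points span the control points.

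The rest of the interferon pathway was read from 6 lists of 121 genes, 101 of them tested, and 0 passed an FDR of 0.1 by edgeR. Of 20 ligand genes of type I and type III interferon, 17 had 0 counts in all 8 mice, which allows up to 0.0812 to 0.0969 CPM per library at a limit of 3 counts. Ifnab had 1 count in control 4 and 2, 1 and 4 counts in tRA 1, tRA 2 and tRA 4, and Ifnk and Ifnl2 had 1 count in a single library each. These limits cover counting error only. Ifng, the type II interferon made by T and NK cells, measured 15.8, 14.8, 17.9 and 14.1 CPM in control mice 1 to 4 and 15.2, 10.55, 7.75 and 9.20 CPM in tRA mice 1 to 4. The mice tRA 2, tRA 3 and tRA 4 were below every control and tRA 1 was among the controls. For Ifng the log2 fold change was -0.55 ± 0.18 (SE, edgeR adjusted p = 0.757), with an unadjusted p of 0.0125.

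All 6 receptor genes were tested, and 0 reached an unadjusted p of 0.05. Ifnar1 measured 196, 209, 193 and 201 CPM in the control mice and 209.8, 203, 216 and 206 CPM in the tRA mice, and its values were close together with overlapping groups. For Ifnar1 the log2 fold change was 0.063 ± 0.058 (SE, edgeR adjusted p = 0.849). Ifnar2 measured 63.0, 73.1, 73.4 and 71.0 CPM in the control mice and 69.9, 71.8, 75.8 and 69.3 CPM in the tRA mice, with control 1 lowest and the others near each other, and its log2 fold change was 0.032 ± 0.069 (SE, edgeR adjusted p = 0.939). Ifngr1 measured 148, 146, 180.2 and 176 CPM in the control mice and 174, 160.3, 176 and 162 CPM in the tRA mice, where controls 1 and 2 were lowest and controls 3 and 4 highest. Ifngr1 had a log2 fold change of 0.046 ± 0.083 (SE, edgeR adjusted p = 0.922). Il10rb, the shared chain of the type III receptor, had the lowest p of the receptors, with 86.7, 87.2, 88.7 and 76.7 CPM in the control mice and 91.3, 88.8, 93.2 and 88.0 CPM in the tRA mice. Control 4 was the lowest mouse, and the log2 fold change was 0.090 ± 0.064 (SE, edgeR adjusted p = 0.804).

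Among 11 kinase and transcription factor genes, 1 reached an unadjusted p under 0.05 upward and 0 downward. Jak1, the kinase shared by the type I and type II receptors, measured 733, 703, 602 and 748 CPM in the control mice and 685, 728, 713 and 789 CPM in the tRA mice. Control 3 was lowest and tRA 4 highest, and its log2 fold change was 0.066 ± 0.086 (SE, edgeR adjusted p = 0.886). Stat4, which carries interleukin 12 and interferon signals in T and NK cells, measured 39.6, 33.5, 44.6 and 41.7 CPM in the control mice and 46.8, 48.5, 49.9 and 46.4 CPM in the tRA mice. All 4 tRA mice were above all 4 controls, and its log2 fold change was 0.27 ± 0.088 (SE, edgeR adjusted p = 0.757).

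Of 16 sensor and adaptor genes upstream of interferon, 0 reached an unadjusted p of 0.05. Their fold changes were positive for 14 and negative for 2, with a median of 0.058. With a mouse left out, this median ran from 0.016 (without tRA 3) to 0.096 (without tRA 1). Unc93b1, the chaperone of the endosomal Toll-like receptors and the gene with the lowest p of this set, measured 624, 604, 618 and 583 CPM in the control mice and 581, 570.2, 561 and 516 CPM in the tRA mice. All 4 tRA mice were below all 4 controls, and the log2 fold change was -0.12 ± 0.068 (SE, edgeR adjusted p = 0.780). Of 9 inhibitors, 0 reached that level. Ptpn6, a phosphatase that damps JAK signalling, measured 909, 819, 859.8 and 783 CPM in the control mice and 803, 871, 874 and 865 CPM in the tRA mice, with overlapping groups and a log2 fold change of 0.018 ± 0.074 (SE, edgeR adjusted p = 0.974). Pias4, a SUMO ligase that restrains cytokine signalling, measured 58.8, 52.0, 55.3 and 50.5 CPM in the control mice and 52.3, 46.3, 49.3 and 47.3 CPM in the tRA mice. Only tRA 1 of the tRA mice exceeded controls 2 and 4, and the log2 fold change of Pias4 was -0.15 ± 0.072 (SE, edgeR adjusted p = 0.776). Socs1, the inducible inhibitor of JAK kinases, was picked with its values known and measured 23.6, 20.9, 25.4 and 22.5 CPM in the control mice and 27.2, 16.7, 12.4 and 12.1 CPM in the tRA mice. The mice tRA 2, tRA 3 and tRA 4 were below all controls and tRA 1 above them, and its log2 fold change was -0.44 ± 0.22 (SE, edgeR adjusted p = 0.780).

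Levels of Ifng and Socs1 were lowest in mice where immediate early genes were also low. All 10 immediate early genes were tested, 0 were called by edgeR or limma-voom and 2 by DESeq2, and 3 were lower at an unadjusted p under 0.05. They summed to 18721, 18118, 17069 and 15663 CPM in the control mice and 18219, 14174, 6911 and 8603 CPM in the tRA mice. The most abundant by CPM, Fos, measured 3337, 3230, 3302 and 2866 CPM in the control mice and 3563, 2762, 1117 and 1420 CPM in the tRA mice, and none was at 0. The part of cell handling or activation state in the values of Ifng and Socs1 was not tested.

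Of 58 interferon-stimulated genes outside the list, all tested, 4 were higher and 2 lower at an unadjusted p under 0.05, beside 2.94% and 3.55% of all genes tested. The median fold change was 0.049, and it ran from 0.015 without tRA 3 to 0.090 without tRA 2. Shisa5, an endoplasmic reticulum protein gene with the highest CPM of this set, measured 1605, 1630, 1533 and 1599 CPM in the control mice and 1692, 1536, 1673 and 1674 CPM in the tRA mice. The lowest values were in control 3 and tRA 2, and its log2 fold change was 0.046 ± 0.071 (SE, edgeR adjusted p = 0.906). Ifi203, a DNA-sensing PYHIN family gene with the lowest p of this set, measured 256, 261, 270.4 and 263 CPM in the control mice and 298, 279, 318 and 332 CPM in the tRA mice. All 4 tRA mice were above all 4 controls, and its log2 fold change was 0.22 ± 0.070 (SE, edgeR adjusted p = 0.757). The annotated spans of Ifi203 (chr1:173920407-173942672) and its PYHIN relative Mndal (chr1:173849126-173942491) overlap on the same strand of GRCm38. Shared exon bases and sequence were not examined for this pair, so their counts may not be independent. Mndal, picked with its values known, measured 292, 307, 357 and 314 CPM in the control mice and 353, 351, 373 and 365 CPM in the tRA mice. Control 3 reached the tRA range, and the log2 fold change was 0.18 ± 0.075 (SE, edgeR adjusted p = 0.757). Slfn1, a Schlafen gene of T cell quiescence chosen in the same way, measured 46.3, 53.8, 60.4 and 64.7 CPM in the control mice and 68.8, 58.4, 68.2 and 85.9 CPM in the tRA mice. The value of tRA 4 was highest, and its log2 fold change was 0.32 ± 0.13 (SE, edgeR adjusted p = 0.757). The remaining gene that was higher at this level was Trim12c, with a fold change of 0.17, and the genes that were lower were Psmb9 (-0.18) and Cxcl9. Cxcl9, a chemokine gene induced by interferon gamma and picked with its values known, measured 6.44, 6.50, 5.75 and 7.50 CPM in the control mice and 4.25, 5.10, 5.80 and 5.29 CPM in the tRA mice. Control 3 lay inside the tRA range, and the log2 fold change was -0.36 ± 0.14 (SE, edgeR adjusted p = 0.757). The mouse tRA 2 was lowest for 11 of these 58 genes, 19.0%, against 74.5% of the 47.

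Plasmacytoid dendritic cells, the specialised producers of type I interferon, were followed by 8 markers, all tested and 0 of them called by edgeR, with 1 higher and 1 lower at an unadjusted p under 0.05. They summed to 315, 331, 282 and 339.6 CPM in the control mice and 252, 325, 298 and 312 CPM in the tRA mice. The most abundant marker by CPM was Tcf4, and none was at 0 in any mouse. The defining marker Siglech measured 19.9, 26.3, 20.5 and 31.2 CPM in the control mice and 9.90, 28.5, 30.7 and 22.8 CPM in the tRA mice. It was lowest in tRA 1, the mouse with the highest level for 23 of the 47 genes, and in tRA 2 it was within the range of the controls. The part of plasmacytoid dendritic cells in the values of Bst2 and of the list was not tested.

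Some other cell markers were lower at an unadjusted p under 0.05 in the same comparison, and Camp, Cxcr2, Jchain, Xbp1 and Prdm1 were picked with their values known. Of 7 monocyte markers, 6 had positive fold changes and 1 negative, and at that level 1 was higher and 0 lower. Markers of conventional dendritic cells, red pulp macrophages and NK cells had 0 at that level in either direction. Of 8 neutrophil markers, all tested, 5 were lower at that level and 0 higher, and 0 passed an FDR of 0.1 by edgeR, 3 by DESeq2 and 1 by limma-voom. They summed to 986, 1431, 1301 and 1178 CPM in the control mice and 815, 802, 709 and 1182 CPM in the tRA mice. The most abundant by CPM, Csf3r, measured 150.1, 347, 207 and 243 CPM in the control mice and 303, 264, 209.5 and 352 CPM in the tRA mice, with overlapping groups, and none was at 0. The fold changes of the neutrophil receptor genes Csf3r and Cxcr2 were positive, 0.25 and 0.39, and those of the other 6 markers negative. Camp, a neutrophil granule gene, measured 73.7, 70.0, 76.3 and 64.2 CPM in the control mice and 25.2, 26.9, 26.2 and 42.7 CPM in the tRA mice, with all tRA mice below all controls. Camp had a log2 fold change of -1.23 ± 0.16 (SE, edgeR adjusted p = 0.135), the lowest adjusted p of all genes tested. Of 6 plasma cell markers, all tested, 3 were lower at that level, 0 were higher, and 0 were called by edgeR, DESeq2 or limma-voom. The fold changes of Xbp1 and Prdm1, transcription factor genes of this set, were positive, 0.020 and 0.11, and those of the other 4 markers negative. The 6 plasma cell markers summed to 806, 775, 864 and 984 CPM in the control mice and 587, 781, 664 and 654 CPM in the tRA mice, with tRA 2 within the control range and the other tRA mice below it, and none was at 0. The most abundant by CPM, Jchain, measured 574, 537, 604 and 722 CPM in the control mice and 367, 541, 428 and 436 CPM in the tRA mice, where tRA 2 was above control 2 and the other tRA mice were below all controls. The part of neutrophils or plasma cells in the values of Bst2 and Ly6e was not tested.

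Of the 47 genes, 25 lay in 10 groups with a neighbour from the list under 1 Mb away, on GRCm38. The 4 Ifit genes lie within 99.3 kb at chr19:34550694-34650009. Oas1a, Oas1g, Oas2 and Oas3 span 177.2 kb at chr5:120730333-120907521. Parp9, Parp14 and Dtx3l lie at chr16:35832874-35972605, Rsad2 and Cmpk2 at chr12:26442746-26479837, and Mx1 and Mx2 at chr16:97447035-97560900. Near copies share sequence, which makes their counts uncertain. Of the different 50-base words in transcripts of Ifit3, 51.2% also occur in Ifit3b, and of those of Ifit3b, 44.5% occur in Ifit3. For Oas1a and Oas1g these shares were 57.6% and 45.2%, and for Phf11b 26.0% were shared with Phf11a. Exons of another annotated gene cover more than 10% of the exon bases of 3 genes, Herc6 (13.7%), Ifi35 (16.8%) and Rtp4 (13.9%). Whether the authors' counting used the strand is not given in the sources used here, so reads of Ifi35 and of the antisense gene over it cannot be told apart.

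Promoter windows from RefSeq on GRCm38.p6, 250 bases before to 50 after the gene start, were found for 36 of the 47 genes. Those without an entry were Dhx58, Zbp1, Oas2, Usp18, Mx1, Mx2, Parp9, Parp14, Ifi27l2a, Ly6e and Rtp4. The core ISRE was searched as GAAANNGAAA on both strands, with overlapping matches counted. It was present for 19 of the 36 genes, 52.8%, and for 3.99% of 27025 genes, or in 3.44% of all 32851 windows. The GAS, searched as TTCNNNGAA on both strands, was present for 6 of the 36 genes, 16.7%, and for 9.55% of all genes, or in 8.30% of all windows. These were Bst2, Ifi35, Ifit2, Igtp, Isg20 and Oas1a. Retinoic acid receptors bind direct repeats of a short half-site, which were searched as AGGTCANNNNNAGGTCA and AGGTCANNAGGTCA on both strands, with spellings settled after other results were known. These exact letters were found in 0 of the 36 genes and each in 0.00913% of all windows. Half-sites that differ from these letters were not searched, so the 0 says little about receptor sites. The 11 genes without an entry were each lowest in tRA 2 and are left out of the split by ISRE letters. Among the 19 genes with the ISRE letters, tRA 2 was the lowest mouse for 13, and among the 17 without them for 11. The median log2 fold changes of these sets were -0.012 and 0.062. A match describes the letters in the window and is not evidence of binding.

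Stretches of the windows that hold the ISRE letters are shown for 9 genes picked with their values known. Distances to the RefSeq gene start are given for Oas1a, Oas1g and Bst2. Capitals mark the ISRE matches, which appear as the reverse complement where the match is on the opposite strand, and each run is written 5′ to 3′ on the strand of its gene. The run of Isg15 (chr4:156200865-156200906, minus strand) holds 3 overlapping matches. Those of Ifit1 (chr19:34640775-34640823, plus strand), Ifit3 (chr19:34583363-34583426, plus strand) and Ifit3b (chr19:34607759-34607822, plus strand) hold 2 separate matches each, and the runs of Ifit3 and Ifit3b have the same letters.
Isg15: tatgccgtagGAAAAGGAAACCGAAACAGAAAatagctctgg
Ifit1: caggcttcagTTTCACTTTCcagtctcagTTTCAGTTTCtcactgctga
Ifit3: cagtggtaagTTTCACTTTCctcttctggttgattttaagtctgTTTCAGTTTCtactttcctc
Ifit3b: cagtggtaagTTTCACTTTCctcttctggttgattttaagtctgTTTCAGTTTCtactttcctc

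In Oas1a (chr5:120907526-120907555, minus strand) and Oas1g (chr5:120887614-120887641, minus strand) 2 overlapping matches end 4 and 2 bases before the RefSeq start. In Bst2 (chr8:71537577-71537612, minus strand) 2 overlapping matches end 114 bases before it. The GTPase genes Irgm1 (chr11:48871425-48871460, minus strand) and Gbp2 (chr3:142620594-142620623, plus strand), whose values varied little, hold 2 and 1. By the starts in GENCODE M21, which differ from those of RefSeq, the matches of Irgm1 and Gbp2 lie inside the gene.
Oas1a: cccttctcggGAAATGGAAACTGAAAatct
Oas1g: cccttctcggGAAATGGAAACTGAAAat
Bst2: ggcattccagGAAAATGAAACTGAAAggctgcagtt
Irgm1: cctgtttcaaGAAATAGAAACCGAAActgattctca
Gbp2: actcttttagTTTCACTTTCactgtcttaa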

How the data were processed

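The authors deposited raw counts per gene for each of 8 mice, and these counts were used as deposited. The paper's methods name ea-utils and Btrim for trimming, Bowtie2 and Tophat2 for alignment and HTSeq for counting, whereas the submitters' processing notes name STAR 2.5.2b, featureCounts 1.5.1 and GRCm38. A deposited DESeq2 comparison, with mean counts, fold changes and p-values, was not used. Symbols, positions and exon lengths came from GENCODE M21, which holds 51633 of the 51826 identifiers. Genes were kept by filterByExpr (minimum count 10), scaled by TMM and tested with edgeR 4.0.16 (quasi-likelihood, Benjamini-Hochberg over 16484 genes) in R 4.3.3. The fits were tested on simulated data. The biological coefficient of variation was 0.152. Mice of a group differed beyond sampling error, the chi-square statistic divided by its degrees of freedom lying between 14.1 and 72.6 for pairs of mice. All libraries shared a sequencing lane per the labels. Alternatives were RLE scaling, library size alone, other count filters, DESeq2 1.42.0, limma-voom (limma 3.58.1), a replicate block and each mouse left out. The members, their roles and the other lists were chosen with earlier results of these data known. Values in every mouse were given by a rule for the gene with the highest CPM in each role, the 8 lowest p-values, the 3 largest fold changes in each direction, Ifnar1, Ifnar2, Ifngr1 and, for each pathway list, the gene with the highest CPM and the one with the lowest p. Other genes were picked with their values known. Figures were drawn with matplotlib 3.10.9.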

Additional observations from a re-analysis of the deposited data

Results flagged for a closer look

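For the list average and for each gene of the list or given above with values by mouse or a fold change, the gap between the highest or lowest mouse of a group and its nearest neighbour was divided by the range of the group, on log2 CPM. In 9 of 152 groups of 4 mice this share passed the 95% limit for a single outlying value. Chance flags about 1 in 20 groups, or 7.60 of these.

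In the tRA group, tRA 2 stood apart as the lowest mouse for Ifit1 (share 0.931, 2.20 CPM against 5.67 to 6.08), Xaf1 (0.860, 23.3 CPM against 32.9 to 34.8), Mx1 (0.838, 8.25 CPM against 14.4 to 16.03) and Shisa5 (0.882, 1536 CPM against 1673 to 1692). The mouse tRA 1 stood apart as the highest for Bst2 (0.881, 30.7 CPM against 26.0 to 26.6) and as the lowest for Ptpn6 (0.884, 803 CPM against 865 to 874). The mouse tRA 4 was high for Camp (0.873, 42.7 CPM against 25.2 to 26.9). Among the controls, control 3 was low for Ifit2 (0.868, 17.0 CPM against 21.3 to 22.0) and control 4 was low for Il10rb (0.839, 76.7 CPM against 86.7 to 88.7).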

How the results depend on the processing

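No gene of the list and none of the pathway lists was called at an FDR under 0.1 in any reported alternative, with adjusted p-values for the list down to 0.188 (Bst2 with DESeq2). The count over all genes was 0 in the main analysis, 6 with no filter on low counts, 44 with DESeq2, 27 with DESeq2 on every gene with a count (chosen after seeing the data), 1 with limma-voom, and 0 to 3 on leaving mice out singly, where tRA 4 gave the 3. The causes were not tested. With library size alone, 657 genes were higher and 501 lower at an unadjusted p under 0.05, a share of 56.7% higher against 45.3% with TMM. With each mouse left out, 261 to 824 of all 16636 to 16760 genes tested were higher at that level and 396 to 1281 lower. DESeq2 had 623 lower of 16484. At that level the list held 0 to 4 higher and 1 to 7 lower genes with each mouse left out, and 2 lower with DESeq2. Its median fold change ran from -0.058 to 0.089 with a mouse left out. The median of the kinase and factor list was 0.015, and 0.044 with library size alone, and it ran from -0.012 (without tRA 1) to 0.036 with a mouse left out, so its direction was not stable. That of the genes outside the list ran from 0.015 to 0.090. Among fold changes of 41 named genes in alternatives, 27 changed sign and 628 did not, none of them a call: Irf7 was at 0.011 with library size alone, Ifi27l2a at -0.045 with limma-voom and -0.044 with the replicate block. With each mouse left out, fold changes that crossed 0 ran for Oas2 from -0.30 to 0.17, Parp14 from -0.10 to 0.028, Irgm1 from -0.095 to 0.015, Oas1g from -0.080 to 0.69, Ifnar2 from -0.016 to 0.053, Ifngr1 from -0.0016 to 0.092, Jak1 from -0.0052 to 0.10, Ptpn6 from -0.015 to 0.057, Ifit1 from -0.28 to 0.071, Ifit3 from -0.52 to 0.045, Irf7 from -0.17 to 0.098, Rsad2 from -0.074 to 0.41, Ube2l6 from -0.11 to 0.42 and Ifi27l2a from -0.24 to 0.17. Fold changes that stayed on their side of 0 but moved widely over the alternatives were those of Usp18 (-0.51 to -0.12), Mx2 (-0.51 to -0.13), Isg15 (-0.53 to -0.051), Socs1 (-0.75 to -0.30), Oasl2 (0.21 to 0.59), Dtx3l (0.12 to 0.34) and Samd9l (0.032 to 0.18), among others. Ifit2 fell to 0.0081 without tRA 1 and Herc6 to 0.0097 without tRA 4, and their highest values were 0.20 and 0.13. With the replicate number as a block, 0 genes were called, and 485 were higher and 715 lower at an unadjusted p under 0.05. Deviations of mice with the same number had correlations over genes of 0.157, -0.0229, -0.0140 and 0.259, and 3 of 8 mice matched their own number best. The sample titles give only a number, and these values cannot settle whether mice with the same number were paired. A fit without both tRA 1 and tRA 2 was run once after seeing the data. It made more calls over all genes, some of them in the pathway lists and none among the members, and it is not reported because those mice were picked by the values under study. Genes at 8 to 45 counts per library, such as Oas1g, limit what depth can show.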
